A study of Drosophila melanogaster with 6 samples.

Results

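The Hedgehog pathway genes examined here were hh, disp, ptc, ihog, boi, smo, cos, fu, Su(fu) and ci, 10 genes listed by name, with no measured value in the rule that chose them. Of these 10 genes, 9 had a probe set annotated to that gene alone, 1 probe set each. All 9 were among the 6447 genes tested for a genotype difference, out of 11982 genes with a named probe set. No probe set was annotated to fu, which encodes the Fused kinase, so fu was not analysed here.

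RNA came from eye-antennal imaginal discs, larval sheets of epithelium that give rise to the eye, the antenna and much of the adult head, of wandering third-instar Drosophila melanogaster larvae kept at 25 °C. Tumour discs carried ey-Gal4, a driver active in the developing eye, together with the insertion GS(2)88A8 and the transgene UAS-Dl, which encodes the Notch ligand Delta, written with /+. Control discs carried the same insertion and transgene, also with /+, without the driver. Both were in strain w1118, with 3 biological replicates each, and the insertion is published as placing lola and psq, genes of transcription factors, under Gal4 control. The driver acts in only some of the cells of a disc, each replicate pooled many discs (the design text gives a number that reads as 300 pairs), and no genotype carried the driver alone. Values are log2 intensities from one-colour Affymetrix arrays, 1 array per replicate. The number of arrays limits the precision.

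Hedgehog is a secreted, lipid-modified signal. In its absence the receptor Patched keeps the membrane protein Smoothened inactive, and the zinc-finger transcription factor Cubitus interruptus (Ci) is cut to a repressor. When Hedgehog binds Patched and its co-receptors, Smoothened signals through a complex around the kinesin-like scaffold Costal-2, and full-length Ci activates target genes, ptc among them. In the eye disc, differentiating photoreceptors make Hedgehog, which drives the morphogenetic furrow, the moving front of differentiation, across the epithelium.

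Between tumour and control discs these genes differed by little and in both directions. The transcription factor gene ci was 1.26-fold higher in tumour discs, and the co-receptor gene ihog 1.21-fold higher. The ligand gene hh was at 0.860 times its control level, below control on every tumour array. Without the replicate number as a block, the test called none of these genes. With that block, it called ci and ihog and not hh. The receptor gene ptc, a target of the pathway, stood at 1.01 times its control level. The median difference of the 9 genes was 0.02 log2, against 0.05 over all 6447 tested genes, and single differences ran from -0.22 to 0.34.

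Each difference was tested with limma over all probe sets, first without and then with the replicate number as a block. These are called the unblocked and the blocked fit, and a gene was called at a Benjamini-Hochberg adjusted p below 0.05. The unblocked fit called 0 of the 9 genes, while it called 0.512% of all tested genes, and 1 of the 9, ci, had an unadjusted p below 0.05. The blocked fit called 2 of the 9 higher in tumour, ci and ihog, against 4.06% of all tested genes, and 0 of the 9 lower, against 5.38%. With replicates 2 and 3 alone and no block, the same 2 genes were called higher, against 2.98% of tested genes, and 0 lower, against 4.19%. The genotypes did not overlap for 2 genes that were higher in tumour, smo and ci, where 8.72% of all tested genes had that pattern. They did not overlap for 1 gene that was lower, hh, against 7.2% of tested genes.

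**Figure D1:**
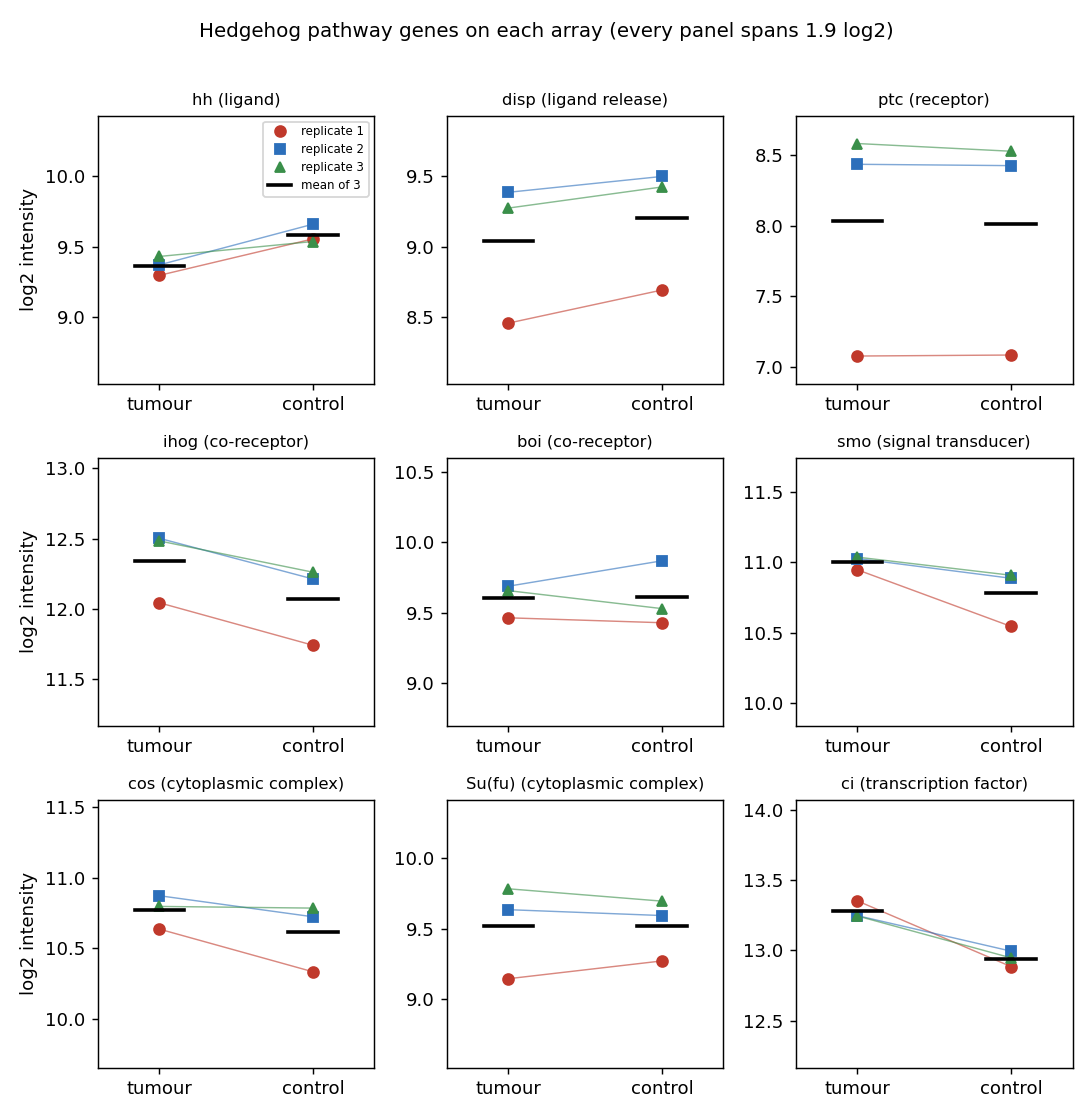
Log2 intensity (vertical axis) of the 9 measured Hedgehog pathway genes on the 6 arrays, tumour at the left and control at the right of each panel, with lines joining arrays of the same replicate number and black bars at the means of 3. For ci and smo every tumour point lies above every control point, for hh every tumour point lies below, and for ptc and disp the replicate 1 arrays of both genotypes lie far below the others.

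In both genotypes, replicate 1 differed from replicates 2 and 3 across the array. Along the first principal component of these data (67.1% of the variance of tested probe sets) the replicate 1 arrays lay on one side and the other 4 on the other, while the genotypes lay apart along the second (23.3%). The control probe sets for 18S rRNA averaged 12.48 and 10.33 log2 on the replicate 1 tumour and control arrays, and between 5.50 and 7.19 on the others. For hh, ihog, smo, cos and ci, values from replicates 2 and 3 alone are given below beside those of all arrays. The same holds for the other pathway genes and target genes that were called.

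The gene hh encodes the ligand itself. It read 9.30, 9.37 and 9.43 log2 in tumour replicates 1, 2 and 3, against 9.56, 9.66 and 9.54 in control replicates 1, 2 and 3. All 3 tumour values lay below all 3 control values, and the replicate 1 arrays did not stand apart for this gene. It averaged 9.37 ± 0.07 in tumour discs and 9.58 ± 0.07 in control discs (SD, n = 3), so that tumour minus control was -0.22. Within the same-number pairs the difference was -0.26, -0.29 and -0.11. The blocked fit gave a 95% interval of the difference from -0.39 to -0.04 and an adjusted p of 0.12, and the unblocked fit an adjusted p of 0.66. Of all tested genes, 31.8% differed between the genotypes by a larger amount. With replicates 2 and 3 alone and no block, hh differed by -0.20 (limma adjusted p = 0.18). In 1 setting hh was called lower, by -0.32 (limma adjusted p = 0.042), when arrays were centred on ribosomal protein genes and the block was kept. That centring moved the median of all tested probe sets from 0.05 to -0.06 log2.

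In the eye part of the disc photoreceptors make Hedgehog, and in the antennal part cells of the posterior compartment do. Markers of the eye part were compared between the genotypes as well. The blocked fit called 4 of 6 tested photoreceptor and furrow markers higher in tumour, against 4.06% of all tested genes, and 0 lower, against 5.38%. Their summed level lay between 13.23 and 13.30 log2 in tumour and between 12.78 and 12.90 log2 in control. Of genes of the antennal part, the markers Dll and ss differed by -0.61 (blocked adjusted p = 0.035) and -0.51 (blocked adjusted p = 0.063). For Dll the genotypes overlapped. The target gene en, which marks posterior cells of that part, differed by -0.35. The part of these cells in the hh values was not tested. In whole discs, fewer cells that express a gene and less of its RNA per cell cannot be told apart.

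The gene disp encodes Dispatched, the membrane protein that releases lipid-modified Hedgehog from the cells that make it. It read 8.46, 9.39 and 9.27 log2 in tumour, against 8.69, 9.50 and 9.42 in control, in replicates 1, 2 and 3. Each tumour array was below the control array of its number, and the genotypes overlapped because both replicate 1 arrays were low. The pairs differed by -0.23, -0.11 and -0.15, and the mean difference was -0.17, with a blocked 95% interval from -0.34 to 0.00 (adjusted p = 0.18) and an unblocked one from -0.97 to 0.64 (adjusted p = 1). Neither limma fit called disp. Without tumour replicate 1 the difference read 0.12, since 1 of the 2 low arrays had then been taken away.

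Among the genes of the receptor, ptc encodes Patched, which binds Hedgehog and, unbound, holds Smoothened inactive. Its transcript is also raised by the pathway in most tissues that receive Hedgehog. It read 7.08, 8.44 and 8.58 log2 in tumour replicates 1, 2 and 3, against 7.08, 8.43 and 8.53 in the control replicates. Arrays of the same number had nearly the same value in both genotypes, and the replicate 1 arrays were far below the rest. The pairs differed by -0.01, 0.01 and 0.05. The mean difference was 0.02, with a blocked 95% interval from -0.18 to 0.22 (adjusted p = 0.89) and an unblocked one from -1.34 to 1.37 (adjusted p = 1). The blocked interval thus leaves room for changes of up to about 0.2 log2 either way, and the unblocked one for far larger ones. The sign of so small a difference depended on the scaling, at -0.02 with quantile normalization and -0.09 with ribosomal protein centring.

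The genes ihog and boi encode related membrane proteins with immunoglobulin and fibronectin type III domains, which bind Hedgehog together with Patched and can stand in for each other in Drosophila. The gene ihog read 12.04, 12.50 and 12.48 log2 in tumour, against 11.74, 12.21 and 12.26 in control, in replicates 1, 2 and 3. Each tumour array was above the control array of its number, by 0.30, 0.29 and 0.22, though the low replicate 1 arrays made the genotypes overlap. It averaged 12.34 ± 0.26 in tumour discs and 12.07 ± 0.29 in control (SD, n = 3). The difference of 0.27 ± 0.041 (SE of the blocked fit) was called in the blocked fit (adjusted p = 0.027) and not in the unblocked fit (adjusted p = 0.90).

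The call of ihog depended on which arrays and which fit were used. With replicates 2 and 3 alone and no block, ihog was higher by 0.26 (adjusted p = 0.036), and with those arrays and the block it was not called (adjusted p = 0.051). With the block it was also not called without replicate 2 (0.26, adjusted p = 0.082) or without replicate 3 (0.30, adjusted p = 0.24). With the block and quantile normalization ihog was called (0.29, adjusted p = 0.012). Ribosomal protein centring with the block gave 0.16 (adjusted p = 0.066), and dropping the mean-variance trend of limma gave an adjusted p of 0.078. The direction was the same in all 19 alternatives, between 0.11 and 0.42.

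The gene boi read 9.46, 9.69 and 9.66 log2 in tumour, against 9.43, 9.87 and 9.53 in control, in replicates 1, 2 and 3. The pairs had mixed signs, at 0.03, -0.18 and 0.13, and the genotypes overlapped. The mean difference was -0.01, with a blocked 95% interval from -0.21 to 0.20 (adjusted p = 0.97). To compare the changes of the co-receptor genes directly, the log2 ratio of ihog over boi was taken within each array. It differed by 0.28 between the genotypes, with pair differences of 0.27, 0.47 and 0.09. The genotypes overlapped, and the exact permutation test gave p = 0.2 (two-sided, adjusted p = 0.5 over 5 such ratios, 3 arrays against 3). With 3 arrays against 3 this exact test cannot go below p = 0.1, so it cannot settle whether the responses of ihog and boi differed. All 3 pair differences had the same sign.

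Downstream of the receptor, smo encodes Smoothened, the membrane protein that passes the signal into the cell and that is controlled mostly through its localisation and phosphorylation. It read 10.95, 11.03 and 11.04 log2 in tumour, against 10.54, 10.89 and 10.91 in control, in replicates 1, 2 and 3. All 3 tumour values were above all 3 control values, and the lowest value was that of control replicate 1. The pairs differed by 0.40, 0.14 and 0.13, and the mean difference was 0.22 (1.17-fold). Its blocked 95% interval ran from 0.04 to 0.41 (adjusted p = 0.12), and neither fit called smo (unblocked adjusted p = 0.78). With replicates 2 and 3 alone the difference was 0.13 (adjusted p = 0.15), so the size of this difference rested in large part on replicate 1.

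The gene cos encodes Costal-2, the scaffold that holds Ci in the cytoplasm beside the Fused kinase. It read 10.64, 10.87 and 10.80 log2 in tumour, against 10.33, 10.72 and 10.79 in control, in replicates 1, 2 and 3. The pairs differed by 0.30, 0.15 and 0.01, all with tumour higher, and the genotypes overlapped. The mean difference was 0.15, with a blocked 95% interval from -0.03 to 0.34 (adjusted p = 0.22). With replicates 2 and 3 alone it was 0.08 (adjusted p = 0.41).

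The gene Su(fu) encodes Suppressor of fused, which binds Ci and restrains its activity. It read 9.15, 9.64 and 9.78 log2 in tumour, against 9.27, 9.59 and 9.70 in control, in replicates 1, 2 and 3. The pairs differed by -0.13, 0.04 and 0.09, and the mean difference was 0.00 with a blocked 95% interval from -0.18 to 0.18 (adjusted p = 1). Of all tested genes, 99.4% had a larger difference between the genotypes.

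At the end of the pathway, ci read 13.35, 13.25 and 13.24 log2 in tumour replicates 1, 2 and 3, against 12.89, 13.00 and 12.95 in control replicates 1, 2 and 3. The genotypes did not overlap, and the replicate 1 arrays were not both low as they were for ptc and disp. Tumour replicate 1 was the highest of the 6 arrays and control replicate 1 the lowest. The gene ci averaged 13.28 ± 0.06 in tumour discs and 12.94 ± 0.06 in control (SD, n = 3). The pairs differed by 0.47, 0.25 and 0.30. The difference of 0.34 ± 0.054 (SE of the blocked fit), with a 95% interval from 0.20 to 0.48, was called in the blocked fit (adjusted p = 0.031) and not in the unblocked fit (adjusted p = 0.21). Of all tested genes, 17.5% differed by a larger amount.

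The call of ci held in more settings than that of ihog. It was called with replicates 2 and 3 alone without a block (0.27, adjusted p = 0.024), and in the blocked fit without replicate 1 (0.27, adjusted p = 0.037) or without replicate 2 (0.38, adjusted p = 0.043). In the blocked fit without replicate 3 it was not called (0.36, adjusted p = 0.26), a setting in which limma called 0 of all tested genes and 953 had an unadjusted p below 0.05. With the block, ci was called with quantile normalization (0.34, adjusted p = 0.0057) and with ribosomal protein centring (0.23, adjusted p = 0.048), and not without the mean-variance trend (adjusted p = 0.076). Across the 19 alternatives the difference lay between 0.23 and 0.38. The arrays measure the transcript of ci and not the balance between full-length activator and cut repressor.

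**Figure D2:**
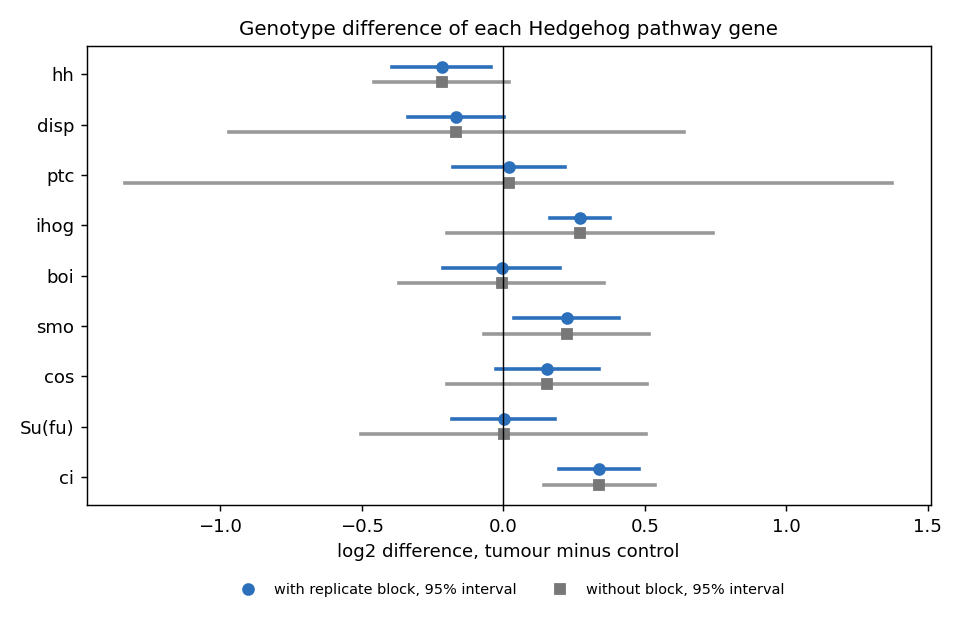
Log2 difference, tumour minus control (horizontal axis), of each of the 9 genes, with 95% intervals from the blocked fit (blue circles) and the unblocked fit (grey squares). The blocked intervals of hh lie below 0 and those of ihog, smo and ci above 0 before adjustment for multiple tests, and the unblocked interval of ptc is the widest of the 9.

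Within-array ratios were taken for 5 pairs of genes that act next to each other or at the ends of the pathway, a choice made with the values above known. The largest difference among the 5 was that of ci over hh. This ratio was 4.05, 3.88 and 3.81 log2 in tumour, against 3.33, 3.33 and 3.41 in control, in replicates 1, 2 and 3. It was higher in tumour in each pair, by 0.73, 0.54 and 0.40, and the genotypes did not overlap. The mean difference was 0.56 (1.47-fold), and the exact permutation test gave p = 0.1, the smallest value 3 arrays against 3 can give (two-sided, adjusted p = 0.5 over the 5 ratios). This value restates the differences of both genes and adds no separate support. Without any 1 array, or with replicates 2 and 3 alone, it lay between 0.47 and 0.61.

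The other 3 ratios differed less clearly. The ratio of ci over Su(fu) was higher in tumour in each pair, by 0.59, 0.21 and 0.21, with a mean of 0.34 (exact permutation p = 0.3, adjusted p = 0.5). Without tumour replicate 1 this mean was 0.11, and with replicates 2 and 3 alone 0.21. That of smo over ptc was higher by 0.41, 0.13 and 0.07, with a mean of 0.20 (exact permutation p = 0.6, adjusted p = 0.7), which became -0.25 without tumour replicate 1 and 0.10 with replicates 2 and 3 alone. That of hh over disp differed by -0.02, -0.18 and 0.04, with a mean of -0.05 (exact permutation p = 0.7, adjusted p = 0.7). Its pairs had mixed signs, and the genotypes overlapped.

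The genes differed widely in how far the replicate 1 arrays departed from the other arrays, irrespective of genotype. Over all tested genes the median of this shift was -0.34 log2. The gene ptc was shifted by -1.41, further down than all but 2.76% of tested genes, and disp by -0.82, further down than all but 12.9%. The shifts of ihog and Su(fu) were -0.47 each, those of cos, boi and smo -0.31, -0.24 and -0.22, and those of hh and ci -0.07 and 0.01. The shift of ci averages a high tumour and a low control replicate 1 array. For ptc the shift was many times its genotype difference of 0.02, and for ci the order was the other way round.

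**Figure D3:**
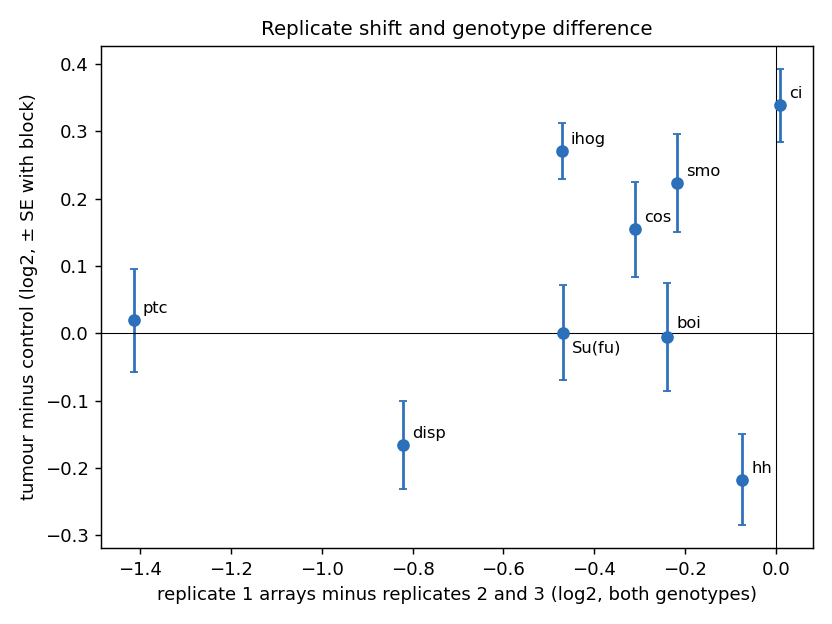
Difference between the replicate 1 arrays and the replicate 2 and 3 arrays over both genotypes (horizontal axis, log2) against the difference between tumour and control (vertical axis, log2, bars are ± SE of the blocked fit) for the 9 genes. The gene ptc lies far to the left at -1.41 with a genotype difference of 0.02, while ci and hh lie near 0 on the horizontal axis with genotype differences of 0.34 and -0.22.

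The genes whose pattern over the 6 arrays was most like that of ci were Kebab (Pearson r = 0.993), unc-5 (0.993) and Slbp (0.991), and 51 of 6435 genes had r above 0.95. For hh they were CG9297 (0.984), NP15.6 (0.980) and CG18661 (0.979), with 29 genes above 0.95. For ihog they were e(y)2, kat80 and CG9915 (0.999 or more each), with 636 genes above 0.95. These values describe 6 arrays that share the replicate 1 split, which ihog followed and ci and hh did not.

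Beyond the 10 genes, 24 others with known parts in Hedgehog signalling were listed by role. Of these, 19 had a probe set annotated to that gene alone, and all 19 were tested. The blocked fit called 0 of the 19 higher, against 4.06% of all tested genes, and 2 lower, against 5.38%. These were the glypican gene dlp and the phosphatase subunit gene wdb. With the block, neither was called once replicate 1, 2 or 3 was left out. The unblocked fit and replicates 2 and 3 alone each called 0 (0 and 3 of the 19 had an unadjusted limma p below 0.05). The median difference of the 19 was 0.09, against 0.05 over all tested genes.

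Genes for the acylation, release and movement of Hedgehog had 5 tested members, while sotv and dally had no probe set annotated to them alone. The gene dlp encodes Dally-like, a cell-surface heparan sulphate proteoglycan that binds Hedgehog. It read 10.73, 11.11 and 11.23 log2 in tumour, against 11.09, 11.40 and 11.41 in control, in replicates 1, 2 and 3. Each tumour array was below its control array, by 0.18 to 0.36, and the mean difference was -0.28 (blocked adjusted p = 0.047, and 0.088 with replicates 2 and 3 alone). With the block and 1 replicate left out, its adjusted p lay between 0.086 and 0.24, and without the mean-variance trend it was 0.093. The gene shf, for a secreted protein that helps Hedgehog spread, differed by 0.25 and was higher in each pair (blocked adjusted p = 0.054). The glycosyltransferase gene botv differed by 0.77 (blocked adjusted p = 0.17), and 1 array, control replicate 1 at 6.42 log2, lay far below the other 5, which were at 8.05 to 8.58. Without replicate 1, botv differed by 0.33. For rasp, the acyltransferase of Hedgehog, and ttv, a heparan sulphate polymerase, the differences were -0.01 and 0.09.

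Of 10 listed kinases and phosphatases that act on Smoothened and Ci, 7 were tested and had a median difference of 0.00. The genes Pka-C1, sgg and mts had no probe set annotated to them alone and were not measured. The gene wdb encodes a regulatory subunit of protein phosphatase 2A. It read 8.61, 9.07 and 9.19 log2 in tumour, against 8.93, 9.46 and 9.54 in control, in replicates 1, 2 and 3. The pairs were close to each other, at -0.32, -0.39 and -0.35, while the genotypes overlapped. The mean difference was -0.35 (blocked adjusted p = 0.037, and 0.058 with replicates 2 and 3 alone). With the block and 1 replicate left out, its adjusted p lay between 0.057 and 0.31, and without the mean-variance trend it was 0.049. Gprk2, whose kinase phosphorylates Smoothened, differed by 0.18 (blocked adjusted p = 0.16), and the phosphatase gene Pp4-19C by 0.12 (blocked adjusted p = 0.18). The casein kinase genes CkIalpha, dco and gish differed by -0.04, -0.01 and 0.12, and Pka-R1, a protein kinase A subunit gene, by 0.00.

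Genes of ubiquitin ligases, coactivators and trafficking had 7 tested members, and neither fit called any of them. The median difference was 0.09. Smurf, a ubiquitin ligase that acts on Smoothened and Patched in Drosophila, read higher on every tumour array than on any control array, with a difference of 0.22 (blocked adjusted p = 0.094). Usp8, for a deubiquitinase of Smoothened, had the same pattern with a difference of 0.23 (blocked adjusted p = 0.19). Of all tested genes, 8.72% had that pattern. The gene slmb, for the F-box protein that promotes the cutting of Ci, differed by 0.02, with mixed signs in the pairs.

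**Figure D4:**
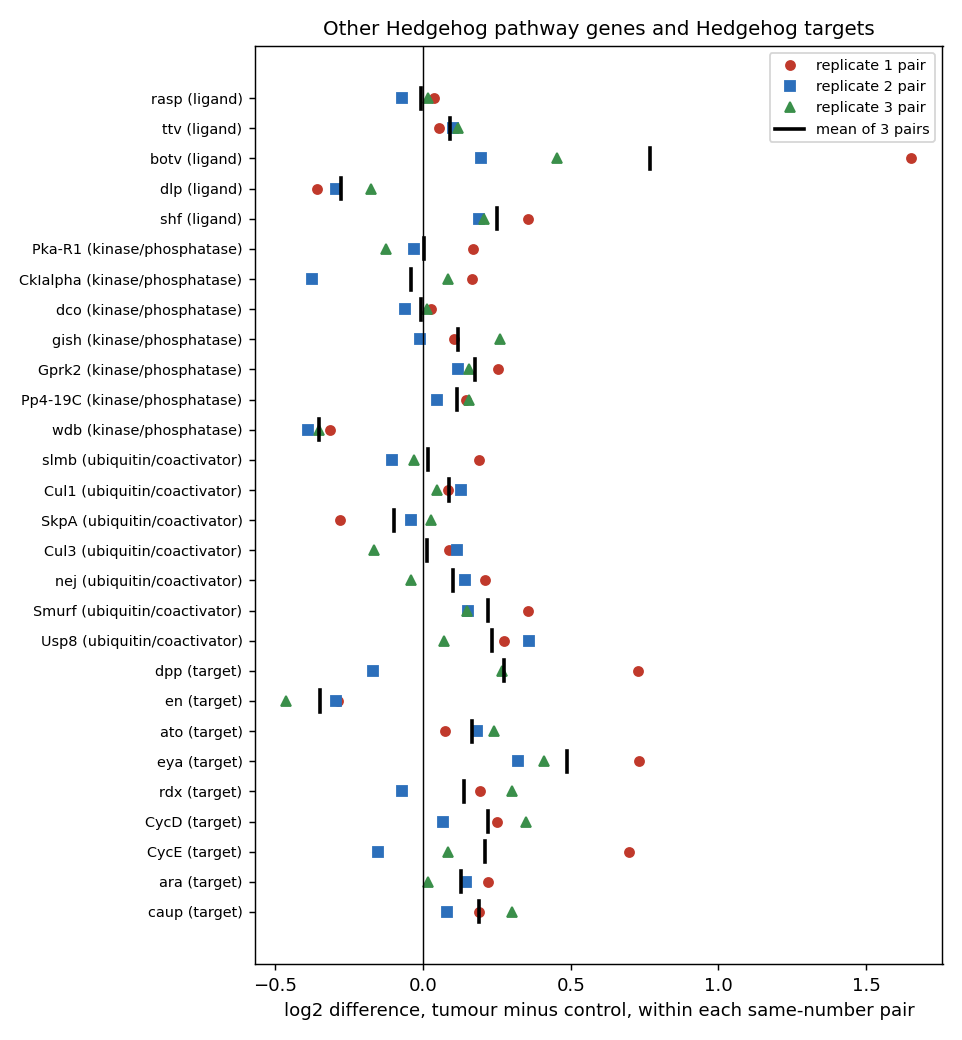
Log2 difference, tumour minus control (horizontal axis), in each same-number pair of arrays for the 19 other pathway genes and 9 target genes that were tested, with the mean of the 3 pairs as a black bar. The points of dlp, wdb and en lie below 0 in all 3 pairs, those of eya above 0 in all 3, and the replicate 1 points of botv, dpp and CycE lie far to the right of the others.

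Of 14 listed Hedgehog targets in discs other than ptc, 10 had a probe set annotated to that gene alone. The genes h, stg, rho and vn had none. Of the 10, 9 were tested, kn being at the floor of the scale. The blocked fit called 1 of the 9 higher, against 4.06% of all tested genes, and 1 lower, against 5.38%. The unblocked fit called 0 (2 had an unadjusted limma p below 0.05), and replicates 2 and 3 alone gave 1 higher, against 2.98%. The median difference of the 9 was 0.19, against 0.05 over all tested genes. The gene called higher was eya, a cofactor of retinal determination, at 13.11, 13.03 and 13.04 log2 in tumour, against 12.38, 12.71 and 12.64 in control, in replicates 1, 2 and 3. The genotypes did not overlap, with tumour higher, as for 8.72% of all tested genes. The difference was 0.49 (blocked adjusted p = 0.037, and 0.019 with replicates 2 and 3 alone). In the blocked fit eya was not called without replicate 3 (adjusted p = 0.27) or without the mean-variance trend (adjusted p = 0.075). The gene eya is also among the eye-antennal markers called higher below.

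The target called lower was en, for the homeodomain protein Engrailed, which in posterior compartments also promotes hh expression and in the antennal disc marks the posterior cells. It read 9.10, 9.12 and 9.18 log2 in tumour, against 9.39, 9.41 and 9.65 in control, in replicates 1, 2 and 3. All tumour values lay below all control values, as for 7.2% of all tested genes. The difference was -0.35 (blocked adjusted p = 0.048, and 0.097 with replicates 2 and 3 alone). With the block, en was not called without replicate 1, 2 or 3 (adjusted p between 0.071 and 0.33) or without the mean-variance trend (adjusted p = 0.067). In the furrow, the proneural gene ato differed by 0.17 (blocked adjusted p = 0.16) and the cyclin gene CycD by 0.22 (blocked adjusted p = 0.14), both higher in each pair. The ligand gene dpp, a main Hedgehog target in the furrow, differed by 0.73, -0.17 and 0.27 in the 3 pairs (blocked adjusted p = 0.34).

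Markers checked the tissue and the cells it could hold. All 8 eye-antennal markers with a probe set were measured above 4 log2, and the wing disc markers vg, nub and ap lay below that on all 6 arrays. The blocked fit called 6 of the 8 eye-antennal markers higher in tumour, against 4.06% of all tested genes, and 1 lower, the antennal gene Dll, against 5.38%. The eighth, the antennal gene ss, lay below control on every tumour array, as did 7.2% of all tested genes, and was not called. Both antennal markers thus ran against the summed level that follows. The summed eye-antennal level lay between 14.61 and 14.81 log2 in tumour and between 13.88 and 14.33 log2 in control. Of 5 tested muscle and myoblast markers, the blocked fit called 2 lower, up and TpnC73F, against 5.38% of all tested genes. The unblocked fit called 1 lower, TpnC73F, where it called 0.512% of tested genes in either direction. Replicates 2 and 3 alone called 2 lower, twi and TpnC73F, against 4.19%. The markers htl and Mlc2 were called in none of these. Summed levels were 11.68 to 11.78 log2 in tumour and 12.29 to 12.48 log2 in control. Of 3 glial markers, the blocked fit called 2 lower, Gs2 (-1.37) and moody (-0.41), against 5.38% of all tested genes. The third, repo, differed by -0.16 (blocked adjusted p = 0.41), and its genotypes overlapped. The unblocked fit called 0 of the 3, and replicates 2 and 3 alone called 1 lower, against 4.19% of tested genes. The summed glial level lay at 9.77 to 10.45 log2 in tumour and 10.54 to 11.23 log2 in control. Haemocyte markers had 0 of 5 called in both limma fits, and the 3 fat body markers were near the floor except on control replicate 3, where their summed level was 7.52 log2 against 4.47 to 4.50 on the other arrays. How far these differences in tissue makeup enter the values of the Hedgehog genes was not tested. Without replicate 3, the difference of hh was -0.27, that of ihog 0.30 and that of ci 0.36.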

How the data were processed

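The authors deposited log2 intensities made with GCRMA, per the submitters' processing notes (version: not given in the sources used here). The method removes background according to the bases of each probe, brings the arrays to a common scale and makes 1 value per probe set. In the deposited values the medians of tested probe sets still differed. They were 8.85 and 8.78 log2 on the replicate 1 tumour and control arrays, and 9.12 to 9.17 on the others. The log2 scale was read from the values, which run from a floor of 2.165 to 15.79. Nothing was normalized again for the main values. Probe sets with 1 gene in GEO's platform annotation (13647 of 18769, without 183 control probe sets) were named, through NCBI's table of assembly Release 6 for 13544 of them. The table gave names alone.

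Probe sets with a log2 value of at least 4 on at least 3 arrays were tested (7962), and a gene stood by its brightest tested probe set. The genotypes were compared in limma 3.58.1 (R 4.3.3; lmFit, then eBayes with trend). Its two-sided p-values were adjusted by Benjamini-Hochberg over the 7962 probe sets and called below 0.05. Adjusted p-values of genes all come from these limma fits. Replicates carry the numbers 1 to 3 in each genotype, and the labels do not say what a number stands for. Deviations from the genotype means correlated at 0.794, 0.467 and 0.723 for same-number arrays, all above the bound of 0.1, so the numbers were taken as pairs. This pairing comes from the data. The correlation of tumour replicate 2 was higher with control replicate 3 (0.668), and that of tumour replicate 3 with control replicate 2 was 0.473. Both lay above the bound too. Deviations cancel out within a genotype, so the shared shift of replicate 1 alone can raise the correlations among replicates 2 and 3. The bound therefore could not tell same-number pairs of replicates 2 and 3 from swapped ones. The blocked fit and the pair differences rest on these numbers. The labels describe biological replicates, each a pool of discs. In the unblocked fit a p-value reflects how much arrays of a genotype vary, the shift of replicate 1 included. In the blocked fit it reflects how much the differences within the inferred pairs vary.

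The members, the lists and the tests were chosen with earlier results of these data known. Named are the 10 members, each gene of the other lists called in either fit, and in each role the 2 others with the smallest p of the blocked fit. The rule was written without saying whether roles with a called gene also get these 2, and it was read to include them. The genes rasp, ttv, CkIalpha, dco, gish, Pka-R1, slmb and dpp fall outside it and were added after their values were seen. Exact permutation tests compared within-array ratios. Alternatives were the block, leaving out arrays, the filter, quantile normalization, centring on 34 ribosomal protein probe sets, and no trend. Each member had 1 probe set, so other probe sets could not be compared. No sequences were used.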

Additional observations from a re-analysis of the deposited data

How the results depend on the processing

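The number of arrays limits the precision. The counts of calls moved with the block and the choice of arrays, and some of the differences moved with the choice of arrays too. Of 171 values of the 9 genes under the 19 alternatives, 141 kept their direction and their side of the threshold, 10 passed the threshold that they had missed, and 20 changed sign, all of them in disp, ptc, boi or Su(fu). With the replicate block limma called 2 of the Hedgehog genes, 2 other pathway genes, 2 targets and 609 of all genes, where the fit without pairing called 0, 0, 0 and 33. Replicates 2 and 3 alone gave 2 Hedgehog genes, 1 target and 462 of all genes. With the block and quantile normalization the counts were 2, 3, 2 and 861, and with the block and ribosomal protein centring 2, 2, 2 and 838. Under this last setting hh was called lower in place of ihog higher, and 18.9% of all calls were higher, against 43.0% with the block alone. Ribosomal protein centring without the block gave 1 other pathway gene and 203 of all genes, 15.8% of them higher against 27.3%. Quantile normalization without it gave 1 target and 179 of all genes. The block without the mean-variance trend gave 0 Hedgehog genes, 1 other pathway gene, wdb, 0 targets and 401 of all genes, and no filter gave 1 of all genes. Leaving out 1 array without the block gave 0 Hedgehog genes, with 1 of the 9 at an unadjusted limma p below 0.05 each time, and 0 to 13 of all genes. With the block and without replicate 1, 2 or 3, limma called 1, 1 and 0 Hedgehog genes, 0 other pathway genes each time, 1, 1 and 0 targets, and 434, 384 and 0 of all genes. The cause of these differences in counts was not tested. Without 1 array, disp lay between -0.42 and 0.12, ptc between -0.45 and 0.50, boi between -0.10 and 0.12, Su(fu) between -0.13 and 0.19, the ratio hh over disp between -0.31 and 0.19, smo over ptc between -0.25 and 0.55, ci over Su(fu) between 0.11 and 0.49, and Pp4-19C between -0.075 and 0.29. With the block, boi was 0.081 without replicate 2, and Su(fu) was -0.019 without replicate 2 and -0.042 without replicate 3. With quantile normalization ptc was -0.018 and Su(fu) -0.035, and with ribosomal protein centring -0.088 and -0.11, with or without the block. The ratios and their alternatives were chosen after seeing the data.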
